A study of Mus musculus with 6 samples.

Results

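The enzymes that turn cholesterol into bile acids and join bile acids to amino acids were examined in the livers of BALB/c mice with fibrosis caused by carbon tetrachloride (CCl4), a liver toxin. The set held 10 genes of 41388 in the count table, chosen by symbol: Cyp7a1, Hsd3b7, Akr1d1, Cyp8b1, Cyp27a1, Cyp7b1, Slc27a5, Amacr, Acox2 and Baat. All 10 had 1 row each and all 10 passed the filter on low counts. Per the labels, CCl4 was given for 5 weeks to every animal. In the AL/NP group, mice also received nanoparticles carrying the bisphosphonate alendronate (4 mg/kg), with 2 injections in each of the final 2 weeks. The other group is titled untreated and labelled a fibrotic control, although its treatment field repeats the text of the treated group. Each group had 3 libraries of polyadenylated RNA from whole liver tissue taken from each lobe. Age, sex and sequencing batch are not given in the labels, which also do not say outright that replicates are separate animals, so p-values measure the spread between these libraries. The comparison does not separate alendronate from its carrier or from the injections.

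Bile acids are made in hepatocytes along a classical and an alternative route. Cyp7a1 starts the classical route and limits its rate, whereas Cyp27a1 and Cyp7b1 start the alternative one by oxidising the side chain and then the ring of cholesterol. Hsd3b7 and Akr1d1 change the sterol ring in both routes, Cyp8b1 adds the hydroxyl group that leads to cholic acid, peroxisomal enzymes such as Amacr and Acox2 shorten the side chain, and Slc27a5 and Baat couple the product to taurine or glycine. Bile acids hold the classical route in check through the nuclear receptor FXR (Nr1h4) and its target SHP (Nr0b2), and inflammatory cytokines are known to lower Cyp7a1.

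Library totals lay between 30554483 and 39838428 counts. Levels are given as CPM, read counts divided by library size after TMM scaling. Each log2 fold change sets AL/NP against control, so a negative value means less RNA with AL/NP. A level of 3 counts corresponded to 0.0826 CPM in the library with the largest size after TMM scaling and 0.104 CPM in the smallest. This level covers counting error only. Control replicate 3 stood apart, with the lowest TMM scaling factor, 0.809 against 0.937 to 1.13, and 26.7% of its counts in mitochondrially encoded genes against 11.96% to 19.8% elsewhere. The liver label held, since Alb, the gene of albumin, measured 36814 to 53586 CPM.

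None of the 10 genes passed the edgeR quasi-likelihood test at an adjusted p under 0.05, where 0.0816% of 15939 genes passed (0.0627% higher and 0.0188% lower). Akr1d1 came closest, with a log2 fold change of -2.11 (SE 0.387, 95% interval -2.99 to -1.22, adjusted p = 0.0928). At an unadjusted p under 0.05, 4 of the 10 were lower with AL/NP (Cyp7a1, Baat, Hsd3b7 and Akr1d1), against 10.3% of all genes, and 0 were higher, against 9.37%. DESeq2 called 1 of the 10, Akr1d1, as lower, against 2.48% of its genes, and 0 as higher, against 2.59%. Limma-voom called 0, against 0.0627%. The groups did not overlap in 2 of the 10, with Cyp7b1 above (14.5% of all genes) and Akr1d1 below (15% of all genes). The log2 fold change was negative in 7 genes and positive in 3, with a median of -0.63 beside -0.000249 over all genes tested. Without control replicate 3 the median was -0.36 and 2 of the 10 were lower at an unadjusted p under 0.05. In that edgeR fit, 3022 of all 16204 genes tested were under that threshold, counting both directions.

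**Figure D1:**
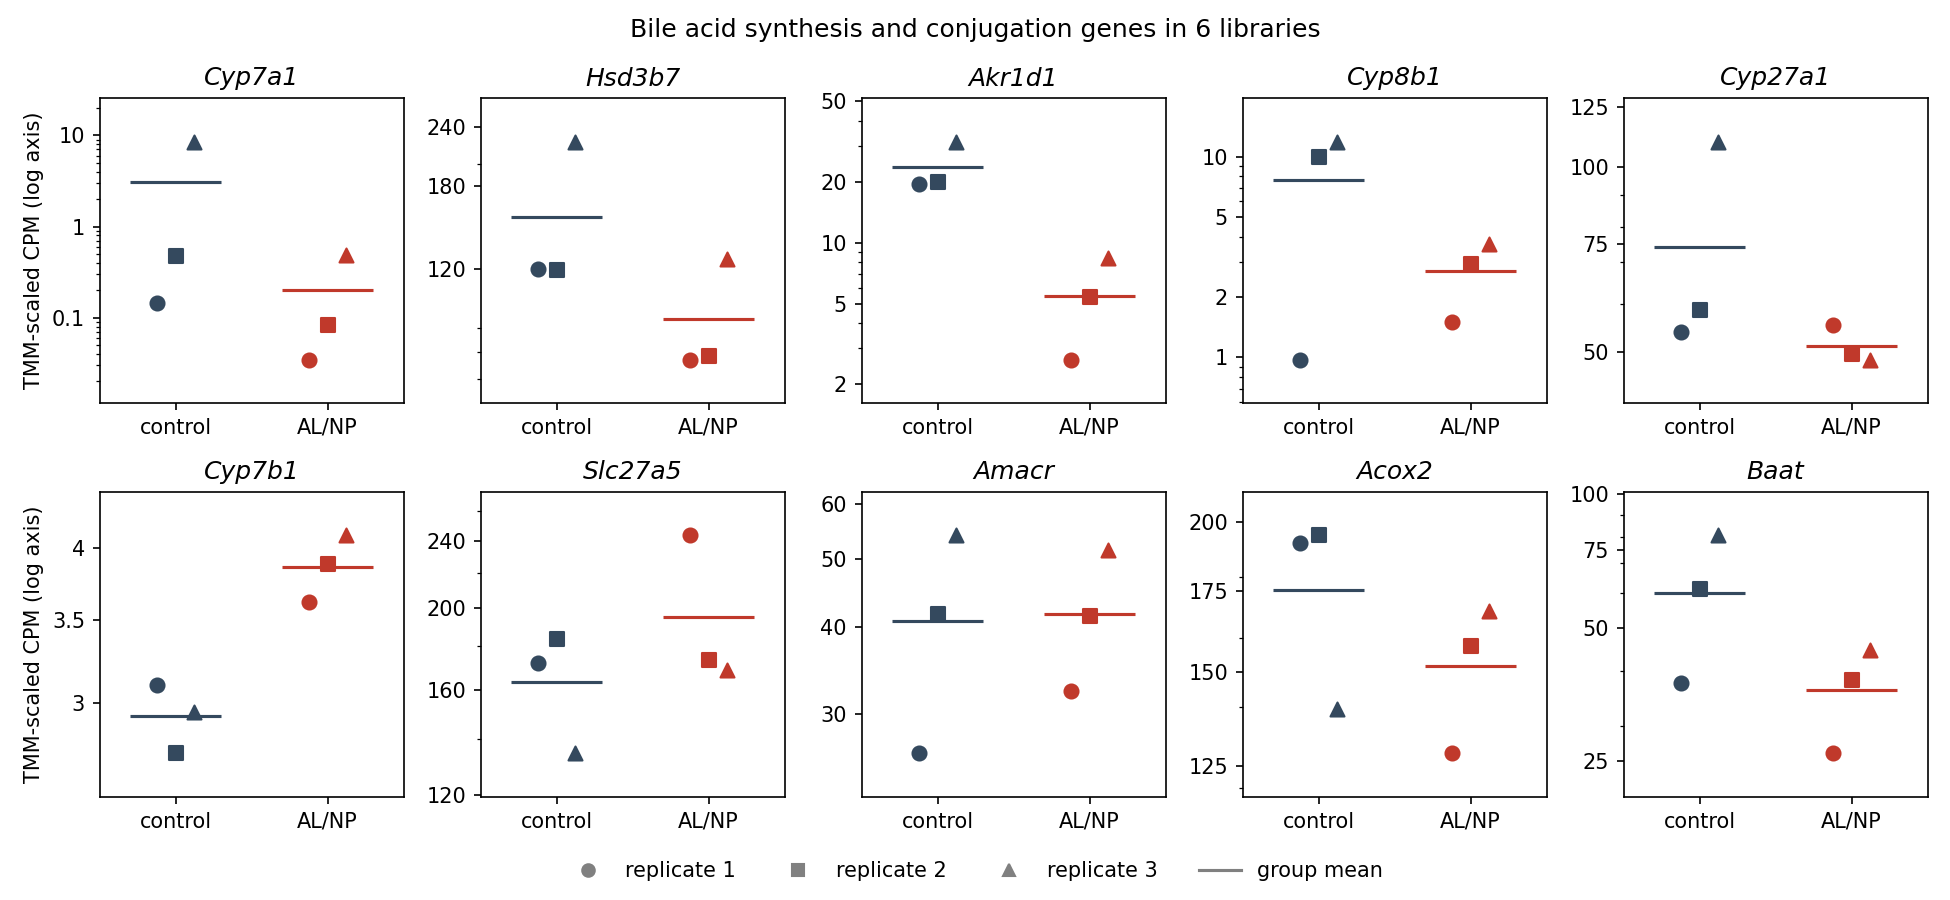
Level of each of the 10 genes in every library, as TMM-scaled CPM on a log axis that differs between panels. Points are libraries, shaped by replicate number, and horizontal lines are group means (n = 3). Akr1d1 lies below and Cyp7b1 above the controls in all 3 AL/NP libraries, and Cyp7a1 reaches 8.54 CPM in control replicate 3 alone.

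Akr1d1 and Cyp8b1 are shown by the letters before their starts, because Akr1d1 was the one gene of the 10 whose AL/NP libraries all lay below the controls and Cyp8b1 differed 12.2-fold within the controls. RefSeq (GRCm38.p6) gave a window for 5 of the 10 genes. Each line holds the 250 bases before the start, 5′ to 3′ on the gene's strand, for Akr1d1 (chr6:37529923-37530172, plus strand) and Cyp8b1 (chr9:121916306-121916555, minus strand). Capitals mark matches to the searched motifs.
Akr1d1: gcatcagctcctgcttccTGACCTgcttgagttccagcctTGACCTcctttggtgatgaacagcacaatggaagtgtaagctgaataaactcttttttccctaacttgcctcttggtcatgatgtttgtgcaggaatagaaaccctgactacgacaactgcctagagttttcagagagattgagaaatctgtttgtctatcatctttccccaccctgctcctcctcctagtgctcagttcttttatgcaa
Cyp8b1: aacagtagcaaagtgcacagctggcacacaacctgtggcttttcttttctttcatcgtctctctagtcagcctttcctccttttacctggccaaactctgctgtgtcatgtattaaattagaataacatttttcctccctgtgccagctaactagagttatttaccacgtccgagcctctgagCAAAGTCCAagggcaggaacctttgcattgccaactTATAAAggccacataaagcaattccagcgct

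The motifs, chosen after these letters were seen, were searched on both strands. They were CAAAGTCCA, a form bound by HNF4, TCAAGGNCA, a form bound by NR5A2, AGGTCA, the half-site of many nuclear receptors, which a form of the NR5A2 motif contains, and the TATA box, TATAAA. The Akr1d1 window held 2 half-sites, both on the opposite strand and so read as TGACCT, from 232 to 227 and from 210 to 205 bases before the start. Of 32851 windows of this length, 14% held a half-site. The Cyp8b1 window held the HNF4 motif from 67 to 59 bases before the start, as 0.384% of windows did, and a TATA box from 31 to 26 bases before it, as 12.4% did. TCAAGGNCA was in neither window and in 1.39% of all. The windows of Cyp27a1, Hsd3b7 and Acox2, which are not shown, were searched too and held none of these motifs. A match describes letters and not binding. Hnf4a, the gene of that receptor, had a log2 fold change of -0.32 (SE 0.204, adjusted p = 0.391), and Nr5a2 one of 0.02 (SE 0.226, adjusted p = 0.975).

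Cyp7a1 (ENSMUSG00000028240, GRCm38 chromosome 4, 6265612 to 6275633) was scarce in 5 of the 6 libraries. It had 1, 3 and 17 reads in AL/NP replicates 1 to 3, and 5, 17 and 275 in control replicates 1 to 3. In CPM these were 0.0348, 0.0826 and 0.493 with AL/NP, and 0.144, 0.470 and 8.54 in controls. The first value is under the level of 3 counts. Control replicate 3 was therefore far above all other libraries, whereas the other 2 controls lay within the range of the AL/NP group. Its fold change was -3.84 on the log2 scale (SE 1.57, 95% interval -7.51 to -0.17, adjusted p = 0.241), and -0.56 without control replicate 3, where the groups held 21 and 22 reads. A difference in Cyp7a1 was thus not detectable outside that library, at these read counts and with this spread between libraries.

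Hsd3b7 (ENSMUSG00000042289, chromosome 7, 127800604 to 127803802), which oxidises the sterol ring after the first hydroxylation, measured 77.0, 78.5 and 126 CPM in AL/NP replicates 1 to 3 and 119.8, 119.6 and 223 CPM in controls. AL/NP replicates 1 and 2 were below every control, and AL/NP replicate 3 was level with the lower 2 controls. Its log2 fold change was -0.72 (SE 0.296, adjusted p = 0.234) and -0.36 without control replicate 3. In the annotation a gene on the opposite strand shares 1729 exonic bases with Hsd3b7, and a gene on the same strand shares 1717. Neither of these genes has a row in the count table. The strand setting of the counting is not given in the sources used here, and an effect of the overlaps was not tested.

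Akr1d1 (ENSMUSG00000038641, chromosome 6, 37530173 to 37568815), the reductase that bends the ring system into the shape typical of bile acids, measured 2.64, 5.37 and 8.38 CPM with AL/NP and 19.5, 19.9 and 31.6 CPM in controls. The highest treated library was below the lowest control, and the mean was 5.46 ± 2.87 CPM (SD, n = 3) with AL/NP against 23.7 ± 6.89 CPM in controls. The fitted level was 4.31-fold lower with AL/NP. Leaving out 1 library at a time gave log2 fold changes from -2.55 to -1.78, with adjusted p from 0.113 to 0.262 (edgeR), and the value without control replicate 3 was -1.85. The call depended on the tool, with an adjusted p of 3.80e-06 from DESeq2.

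Cyp8b1 (ENSMUSG00000050445, chromosome 9, 121914356 to 121916305) measured 1.49, 2.92 and 3.66 CPM with AL/NP and 0.976, 10.03 and 11.9 CPM in controls. Controls 2 and 3 were above all treated libraries, and control 1 was the lowest of all 6. A log2 fold change of -1.50 (SE 0.765, 95% interval -3.27 to 0.28, adjusted p = 0.306) did not exceed that spread. Without control replicate 1 it was -2.02.

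**Figure D2:**
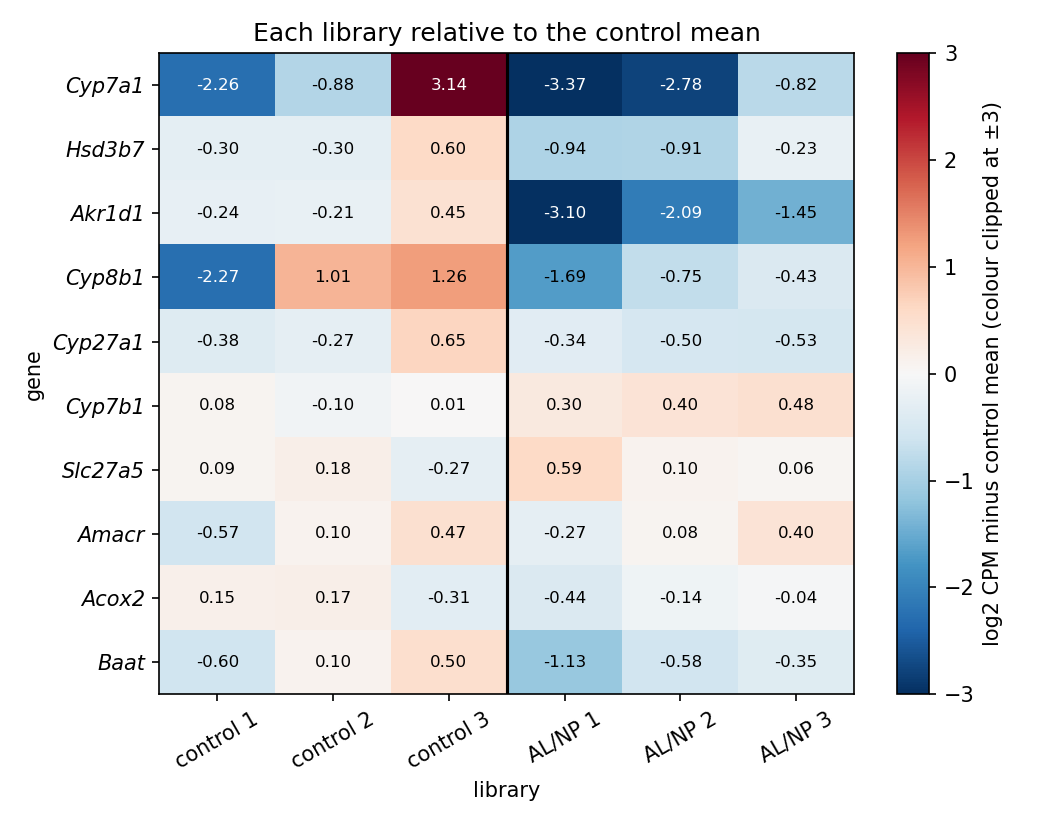
Log2 CPM of each gene (rows) in each library (columns) minus the mean of the 3 controls, with blue for lower and red for higher and the value printed in each cell. Control replicate 3 is the highest library for 7 of the 10 genes, and Akr1d1 is between 1.45 and 3.10 below the control mean in every AL/NP library.

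Of the 2 enzymes that open the alternative route, Cyp27a1 was lower and Cyp7b1 higher with AL/NP, neither past the test. Cyp27a1 (ENSMUSG00000026170, chromosome 1, 74713574 to 74737892), a mitochondrial sterol hydroxylase, measured 55.4, 49.6 and 48.7 CPM with AL/NP and 54.0, 58.5 and 110.0 CPM in controls. Apart from control replicate 3, all values lay within 48.7 to 58.5 CPM. AL/NP against control gave a log2 fold change of -0.53 (SE 0.263, adjusted p = 0.290), and -0.14 without control replicate 3.

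Cyp7b1 (ENSMUSG00000039519, chromosome 3, 18071950 to 18243338), an oxysterol hydroxylase, measured 3.61, 3.88 and 4.09 CPM with AL/NP and 3.10, 2.73 and 2.95 CPM in controls. Every treated library was above every control, and replicates varied little, at 3.86 ± 0.239 and 2.93 ± 0.185 CPM (SD, n = 3). The log2 fold change was 0.40 (SE 0.209, 95% interval -0.08 to 0.87, adjusted p = 0.310), and it lay between 0.34 and 0.44 with any library left out.

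The balance between these enzymes was compared as 3 log2 ratios within each library, by an exact two-sided permutation test over the 6 libraries that cannot go below p = 0.1. The Cyp7a1 to Cyp27a1 ratio was lower by 1.86 with AL/NP (log2 difference -1.86, exact p = 0.3). The difference was -2.72 for Cyp7a1 to Cyp7b1 (exact p = 0.2) and 1.37 for Cyp8b1 to Cyp7a1 (exact p = 0.3), and the adjusted p over the 3 was 0.3 for each (exact permutation test). Control ratios spread widely, with an SD of 2.82 for Cyp7a1 to Cyp7b1, so no shift between the routes exceeded the spread between libraries. Without control replicate 3 the 3 differences were -0.62, -1.15 and 0.43.

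Among the peroxisomal enzymes, Amacr (ENSMUSG00000022244, chromosome 15, 10981756 to 10996626), a racemase that prepares the side chain, measured 32.4, 41.4 and 51.5 CPM with AL/NP and 26.4, 41.8 and 54.1 CPM in controls. The groups covered almost the same range, with a log2 fold change of 0.04 (SE 0.2695, 95% interval -0.58 to 0.65, adjusted p = 0.952). Its sign changed with the library left out, from -0.20 without control replicate 1 to 0.29 without control replicate 3.

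Acox2 (ENSMUSG00000021751, chromosome 14, 8225511 to 8259353), the branched-chain oxidase that starts side-chain shortening, measured 128, 158 and 169 CPM with AL/NP and 192, 195 and 139.5 CPM in controls. Control replicate 3 lay among the treated libraries and the other 2 controls above them. Acox2 had a log2 fold change of -0.21 (SE 0.188, adjusted p = 0.538), and -0.36 without control replicate 3.

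The 2 conjugation enzymes did not share a direction. Slc27a5 (ENSMUSG00000030382, chromosome 7, 12988346 to 12998192), the ligase that activates bile acids, measured 244, 173 and 169 CPM with AL/NP and 172, 184 and 134 CPM in controls. AL/NP replicate 1 was above all others while the rest overlapped, and the log2 fold change of 0.26 (SE 0.201, adjusted p = 0.481) was 0.07 without that library.

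Baat (ENSMUSG00000039653, chromosome 4, 49489422 to 49506557), the transferase that attaches the amino acid, measured 26.1, 38.1 and 44.6 CPM with AL/NP and 37.5, 61.0 and 80.8 CPM in controls. Control replicate 1 lay within the treated range and the other 2 controls above it. Baat had a log2 fold change of -0.72 (SE 0.292, 95% interval -1.38 to -0.06, adjusted p = 0.228), and -0.44 without control replicate 3. A difference between Baat and Slc27a5 was not tested.

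**Figure D3:**
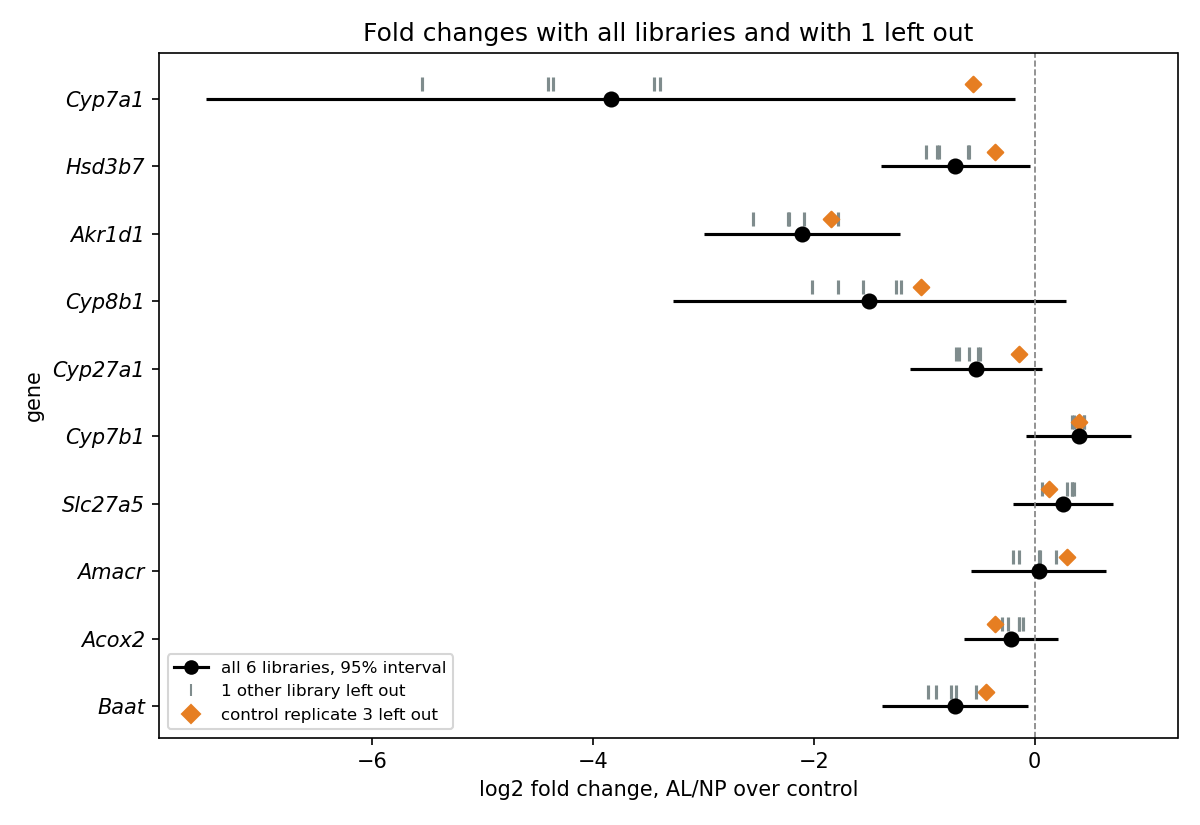
Log2 fold change of AL/NP over control for each gene, with black points and lines for the edgeR estimate and its 95% interval over all 6 libraries. Grey ticks leave out 1 other library and orange diamonds leave out control replicate 3, which moves Cyp7a1 from -3.84 to -0.56 and leaves Akr1d1 at -1.85.

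Per kilobase of annotated exon, and so on a scale that allows genes to be compared, mean levels over the 6 libraries ran from Slc27a5 at 73.5 CPM per kilobase through Hsd3b7 at 44.8, Acox2 at 44.1, Cyp27a1 at 28.9, Baat at 24.7, Amacr at 15.8, Akr1d1 at 5.04, Cyp8b1 at 2.65 and Cyp7b1 at 1.57 to Cyp7a1 at 0.390. Each gene overlapped its neighbour in that order in the range over libraries, and the lowest Slc27a5 value, 55.2, stood above the highest Acox2 value, 52.6, but not above the highest Hsd3b7 value, 80.7. By group means, Akr1d1 came just after Amacr in both groups, at 8.18 ± 2.38 CPM per kilobase (SD, n = 3) in controls and 1.89 ± 0.993 with AL/NP, where Cyp7b1 stood at 1.78 ± 0.110.

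Single libraries carried much of the pattern. Control replicate 3 was the highest of the 6 libraries for 7 of the 10 genes, where it was highest for 28.2% of all genes tested. AL/NP replicate 1 was the lowest for 5 of the 10, where it was lowest for 27.5% of all genes. The median over the 10 genes of log2 CPM minus the control mean was -0.69, -0.54 and -0.29 in AL/NP replicates 1 to 3, and -0.34, 0.00069 and 0.49 in controls 1 to 3. Control replicate 1 thus lay below AL/NP replicate 3 on this measure. In whole liver, fewer hepatocytes and less RNA per hepatocyte cannot be told apart.

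Of 19 other enzymes of bile acid and sterol oxidation, 0 passed edgeR; 3 were higher and 3 lower at an unadjusted p under 0.05, and DESeq2 called 1 each way. Over all genes the unadjusted shares were 9.37% higher and 10.3% lower, and the DESeq2 shares 2.59% and 2.48%. Ch25h, which makes an oxysterol and is known for its activity in macrophages, measured 2.64, 2.56 and 3.22 CPM with AL/NP and 1.12, 0.304 and 0.466 CPM in controls. Its groups did not overlap (log2 fold change 2.15, SE 0.449, adjusted p = 0.103 by edgeR and 3.02e-04 by DESeq2). Sult2a8, a bile acid sulfotransferase, went the other way, with 1.63, 0.633 and 1.42 CPM against 2.81, 2.54 and 8.54 CPM. Its log2 fold change was -1.92 (SE 0.543, adjusted p = 0.146 by edgeR and 0.00784 by DESeq2), and -1.13 without control replicate 3. Cyp46a1, another cholesterol hydroxylase, stood at -0.90 (SE 0.269, adjusted p = 0.153), with no overlap between groups.

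Of 16 regulators, 15 were tested and 0 passed edgeR, with 4 lower (10.3% of all genes) and 0 higher (9.37%) at an unadjusted p under 0.05. Nr0b2, the repressor of Cyp7a1 known as SHP, measured 27.2, 32.5 and 28.1 CPM with AL/NP and 96.7, 41.9 and 40.4 CPM in controls. Every treated library was below every control (log2 fold change -1.03, SE 0.322, adjusted p = 0.166 by edgeR and 0.0418 by DESeq2). Control replicate 1 had the highest Nr0b2 level, and without that library the log2 fold change of Nr0b2 was -0.49. Mafg, another repressor downstream of FXR, stood at -0.64 (SE 0.223, adjusted p = 0.193) and Prox1, a corepressor, at -0.58 (SE 0.254, adjusted p = 0.251). Fgf15, the intestinal hormone that restrains Cyp7a1 in hepatocytes, had 1 count in each group and was not tested.

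The clock genes Dbp and Nr1d1, picked out after their values were seen because Cyp7a1 follows the daily rhythm, differed between libraries of one group. Dbp measured 6.85, 88.3 and 39.1 CPM in AL/NP replicates 1 to 3 and 35.6, 36.4 and 59.0 CPM in controls. Nr1d1 measured 32.2, 97.2 and 52.4 CPM with AL/NP and 12.9, 20.9 and 49.6 CPM in controls. AL/NP replicate 1 had the lowest Dbp and the lowest Cyp7a1, Akr1d1, Hsd3b7, Baat and Acox2. That library was lowest for 27.5% of all genes tested. The highest Dbp and Nr1d1 were in AL/NP replicate 2, where Cyp7a1, at 0.0826 CPM, was also below every control. The lowest Nr1d1 was in control replicate 1. The part of the daily rhythm in these results was not tested.

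Bile acid transporters had the lowest median of the pathway lists, -0.91 over 10 tested of 12, with 7 lower (10.3% of all genes) and 0 higher (9.37%) at an unadjusted p under 0.05. EdgeR called 0 of them and DESeq2 called 4 lower (2.48% of its genes). Without control replicate 3 the median of the transporters was -0.67, with all 10 lower. Abcc4, an exporter of the blood-facing membrane, measured 4.38, 4.35 and 4.24 CPM with AL/NP against 9.16, 10.2 and 11.2 CPM in controls, the groups far apart. Its log2 fold change was -1.24 (SE 0.1702, adjusted p = 0.0579 by edgeR and 1.60e-06 by DESeq2), and it stayed between -1.31 and -1.17 with any library left out. Slc51b, a subunit of another exporter, measured 0.417, 0.826 and 0.725 CPM against 1.52, 1.74 and 3.76 CPM (log2 fold change -1.81, SE 0.443, adjusted p = 0.126). Its partner Slc51a had no count in any library. Slco1a4, an uptake carrier, stood at -1.42 (SE 0.4001, adjusted p = 0.147), with control replicate 1 at 11.7 CPM within the treated range.

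**Figure D4:**
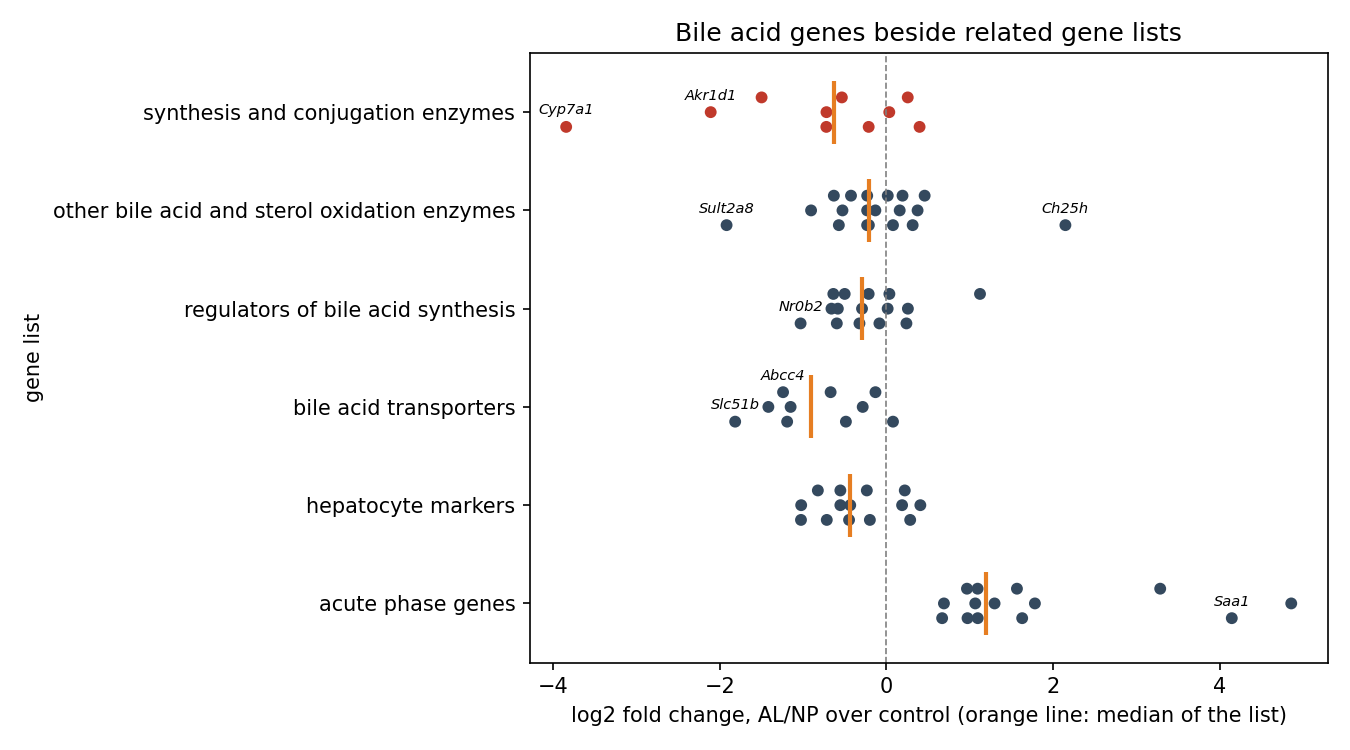
Log2 fold change (AL/NP over control) of each tested gene in 6 lists, with the synthesis and conjugation enzymes in red, other lists in dark blue, and an orange line at each list's median. The enzymes' median is -0.63, that of transporters -0.91 and that of hepatocyte markers -0.44, and all 14 acute phase genes lie above 0.

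Hepatocyte markers and acute phase genes were measured in the same libraries. Of 14 hepatocyte markers tested, 10 were lower and 4 higher, with a median of -0.44 and 0 called by edgeR (2 lower at an unadjusted p under 0.05, where 10.3% of all genes were, and 1 called lower by DESeq2, against 2.48%). Without control replicate 3 that median was -0.12, with 9 lower and 5 higher. Their summed level was 52252 to 59686 CPM with AL/NP and 62929 to 80782 CPM in controls, without overlap. Most of that sum was Alb, at 36814 to 43309 CPM with AL/NP and 44091 to 53586 CPM in controls, so it does not describe the markers as a set. Alb stood at -0.23 (SE 0.242, adjusted p = 0.603) and Apoa1, the next most abundant, at -0.55 (SE 0.3455, adjusted p = 0.386), or -0.10 without control replicate 3. Ttr, the marker called by DESeq2, stood at -0.82 (SE 0.217, adjusted p = 0.140 by edgeR and 0.00239 by DESeq2). Without control replicate 3 Ttr was at -0.67. All 14 acute phase genes, many of which hepatocytes make in inflammation, were higher, with a median of 1.20. EdgeR called 4 of them (0.0627% of all genes). Their summed levels were 21897 to 26085 CPM with AL/NP and 9542 to 12956 CPM in controls. The 4 called were Saa1, Saa3, Orm2 and Orm3, and the most abundant were Hpx at 1.10 (SE 0.213, adjusted p = 0.0970) and Hp at 1.30 (SE 0.234, adjusted p = 0.0903). These acute phase genes were already known to differ in these libraries.

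Levels of markers of other cell types are given for the same comparison. Macrophage and Kupffer cell markers were higher in 10 of 11, with summed levels of 415 to 647 CPM with AL/NP and 211 to 322 CPM in controls. Not all kept their direction. Clec4f, the lower one, moved from -0.20 to 0.26 without control replicate 3. Timd4 moved from 0.16 to -0.22 and Vsig4 from 0.37 to -0.23 without AL/NP replicate 3. Neutrophil markers were higher in all 7 tested of 8, with summed levels of 35.0 to 74.9 CPM against 19.0 to 34.2 CPM. Stellate cell markers were lower in 7 of 8 (216 to 527 against 259 to 781 CPM), but without control replicate 3 they were higher in 5 of 8. The log2 fold changes were then 0.10 for Col1a1, 0.07 for Col1a2, 0.12 for Col3a1, 0.0033 for Pdgfrb and 0.60 for Des. Those of Acta2, Lrat and Reln were then -0.25, -0.45 and -0.06. Cholangiocyte markers were higher in 5 of 6 tested (452 to 873 against 428 to 602 CPM). Most of that sum was Spp1, at 417 to 830 against 376 to 558 CPM. Without AL/NP replicate 1, the log2 fold change of Krt19 moved from 0.57 to -0.27. Krt7 fell to 0.07, Sox9 to 0.13 and Epcam to 0.17 in that setting. Spp1 stayed between 0.23 and 0.67 with any library left out. Sinusoidal endothelial markers were higher in 5 of 6 (115 to 131 against 96.9 to 137 CPM). The summed ranges of the last 3 lists overlapped. None of these markers passed edgeR. At an unadjusted p under 0.05 there were 7 macrophage and 5 neutrophil markers, all higher (9.37% of all genes), 1 cholangiocyte marker, lower (10.3%), and 0 stellate and endothelial markers. DESeq2 called 4 macrophage and 3 neutrophil markers, all higher (2.59% of its genes). No marker in these lists was at 0 in all libraries. The part of cell composition or of the acute phase in the levels of the bile acid enzymes was not tested.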

How the data were processed

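The deposited table holds raw read counts per Ensembl gene, 1 column per library, as its whole-number values show. GRCm38, STAR 2.6.1a, featureCounts and DESeq2 1.26.0 are named in the submitters' processing notes; the strand setting and annotation are not given in the sources used here. Of 41388 identifiers, 40254 had a symbol in the reference table; coordinates and exon lengths came from GENCODE M21 (GRCm38). The 6 libraries were compared with edgeR 4.0.16 (R 4.3.3; TMM, filterByExpr with a minimum count of 10, robust quasi-likelihood test, Benjamini-Hochberg over all 15939 genes tested). SE is the absolute log2 fold change over the square root of F. Log2 ratios used a prior count of 2. Alternatives included DESeq2 1.42.0 and limma-voom (limma 3.58.1). The fits were tested on simulated counts.

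All 10 genes are reported. The other genes named are called members of each list, the 3 with the smallest p in each pathway list, and the 2 most abundant hepatocyte and acute phase genes. Outside that rule, Hnf4a and Nr5a2 are named for the motifs, and Fgf15 and Slc51a as genes too low to test. Dbp, Nr1d1, Ttr and the named macrophage, stellate cell and cholangiocyte markers were added after their values were seen. Of 127 list symbols, 2 had no row. The members and all lists were chosen with earlier results of these data known. No pair of libraries looked like a duplicate (chi-square per degree of freedom at least 30.6).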

Additional observations from a re-analysis of the deposited data

How the results depend on the processing

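Over 14 alternatives for each of the 10 genes, 138 of 140 log2 fold changes kept their sign. The exceptions were Amacr when AL/NP replicate 3 or control replicate 1 was left out (range with 1 library left out -0.20 to 0.29). All 14 alternatives reuse the same 6 libraries, so this count is not independent evidence. The fit without robust estimation had the main log2 fold change for all 10 genes and could not change a sign. Akr1d1 passed the threshold in 2 alternatives, with DESeq2 (-2.11) and with the replicate number as a block (-2.21, adjusted p = 0.0436, edgeR); no other of the 10 genes was called in any alternative. The block does not rest on pairing: deviations of same-numbered libraries correlated at -0.05, 0.04 and 0.08, and not every library correlated best with its own number. For the 3 ratios the block cannot change the difference, since each number occurs once in each group. Leaving out 1 library gave -2.81 to -0.62 for Cyp7a1 to Cyp27a1, -3.89 to -1.15 for Cyp7a1 to Cyp7b1, and 0.43 to 2.32 for Cyp8b1 to Cyp7a1. The number of genes called was 13 (10 higher, 3 lower). It was 23 with the block (9 lower), 844 with DESeq2 (431 higher, 413 lower), 747 with no filter beyond 1 count (374 higher, 373 lower), and 0 (0 higher, 0 lower) with library totals without scaling and without robust estimation. At an unadjusted p under 0.05 those last 2 settings had 2254 and 3133 genes. Limma-voom called 1 gene lower. With 1 library left out, it was 0 to 4 (0 to 3 higher, 0 to 2 lower); these fits have fewer samples. For the other shifts the cause was not tested. Library totals moved the median of all genes to 0.13, and the 10 genes' median to -0.43. Low counts and the spread between libraries both limit Cyp7a1, with 318 reads in all, 275 of them in 1 library, and a 59.5-fold difference in CPM within the controls.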
